A study of Mus musculus with 12 samples.

Results

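Chaperone and heat shock genes were followed through 2-cell mouse embryos in which Eif1ad3 was knocked down and through RNA recovered with His-tagged Eif1ad3. The genes were chosen by symbol alone: the HSP70, HSP90, HSP60/HSP10 and small heat shock protein genes, the J protein genes Dnaja, Dnajb and Dnajc, the TRiC/CCT subunits, Bag1 to Bag6 and the heat shock factors Hsf1 and Hsf2, without pseudogenes. This gave 85 genes of the 17012 listed in both deposited tables. They comprised 10 HSP70 genes, 3 HSP110 genes, 3 HSP90 genes, 3 HSP60/HSP10 genes and 10 TRiC/CCT genes. A small heat shock protein symbol was carried by 3 genes, Hspb1, Hspb6 and Hspb11. There were 4 Dnaja, 11 Dnajb and 28 Dnajc genes and 2 heat shock factors. The remaining 8 were genes of BAG proteins (6), the exchange factor Hspbp1 and Hspbap1, whose product binds a small heat shock protein. Families were set by symbol and not by function. A further 5 genes that fit the same rule were listed in the pulldown table only.

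4 groups of 2 libraries, A and B, were compared, all from embryos at the 2-cell stage. In the knockdown experiment the design text describes 1-cell CF1 embryos injected with RfxCas13d mRNA alone (control, genotype WT) or with RfxCas13d mRNA and a guide RNA against Eif1ad3 and its variants (knockdown, genotype Eif1ad3_KD), so the control embryos also carried the RNA-cutting enzyme. The samples' protocol instead names oocytes, antisense morpholino oligos and Cas13d protein, and the sources used here do not settle which applied. In the pulldown experiment zygotes received in vitro transcribed Eif1ad3-6xHis mRNA at 200 ng/uL, and 200 cells per replicate were lysed and their RNA recovered on magnetic beads with an antibody against the tag (His) or with negative-control IgG. Both pulldown groups carry the label Eif1ad3_OE. The IgG libraries therefore measure RNA that stays with beads and a non-specific antibody in embryos labelled as having the same injection. Nothing in the labels says that replicates A and B came from separate pools of embryos, so p-values measure only the spread between these libraries, which may be technical.

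Heat shock proteins are molecular chaperones: they bind unfolded or partly folded proteins and help them fold, assemble or be degraded. HSP70 proteins bind short unfolded stretches in a cycle driven by ATP, in which J proteins deliver the client and speed ATP hydrolysis, while HSP110, BAG and HspBP1 proteins release the nucleotide. HSP90 acts later on kinases, receptors and other clients, and the ring-shaped chaperonins, TRiC/CCT in the cytosol and HSP60 with HSP10 in mitochondria, enclose their clients. Hsf1 is the main transcription factor of the heat shock response and is a maternal-effect gene in the mouse, and the inducible HSP70 genes Hspa1a and Hspa1b are known as early transcripts of the mouse embryonic genome.

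Because the inducible HSP70 genes are the best known targets of heat shock factors, the promoters of Hspa1a and Hspa1b are shown first, with that of Hspe1, one of 4 of the genes whose window holds a run of 3 or more of the factor's recognition units. Each window runs from 250 bases before to 50 bases after the transcription start, 5′ to 3′ on the gene's strand, from RefSeq on GRCm38.p6. Capitals mark the match to paired units of the heat shock element.
Hspa1a, chr17:34972107-34972406, minus strand: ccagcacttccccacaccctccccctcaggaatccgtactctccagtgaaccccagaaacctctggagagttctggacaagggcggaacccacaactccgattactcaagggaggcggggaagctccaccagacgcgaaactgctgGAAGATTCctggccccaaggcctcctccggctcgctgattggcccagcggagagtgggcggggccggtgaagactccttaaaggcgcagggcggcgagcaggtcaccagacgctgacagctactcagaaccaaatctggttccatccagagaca
Hspa1b, chr17:34959189-34959488, minus strand: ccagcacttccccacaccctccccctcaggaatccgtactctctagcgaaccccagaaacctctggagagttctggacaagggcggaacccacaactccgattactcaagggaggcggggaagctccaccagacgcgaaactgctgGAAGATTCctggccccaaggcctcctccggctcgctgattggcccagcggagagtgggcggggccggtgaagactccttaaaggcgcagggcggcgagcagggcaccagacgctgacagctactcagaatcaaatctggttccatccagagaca
Hspe1, chr1:55087898-55088197, plus strand: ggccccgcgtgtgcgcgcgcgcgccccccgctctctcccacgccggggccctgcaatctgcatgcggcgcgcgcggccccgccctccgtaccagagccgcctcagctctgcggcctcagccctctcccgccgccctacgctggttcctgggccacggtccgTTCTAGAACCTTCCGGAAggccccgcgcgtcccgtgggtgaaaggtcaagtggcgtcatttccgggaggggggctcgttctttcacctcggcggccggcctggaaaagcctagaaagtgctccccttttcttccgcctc

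The windows of Hspa1a and Hspa1b were identical at 296 of 300 bases (98.7%), and both held GAAGATTC at positions -104 to -97 from the start. The capitals in Hspe1, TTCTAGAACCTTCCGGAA, lay at positions -89 to -72. The same run, read on the other strand, lay at -144 to -127 of the window of Hspd1, since these neighbouring genes are transcribed away from each other and their windows overlap. Of the 85 genes, 68 had a RefSeq promoter window. A match to GAANNTTC or TTCNNGAA, each of which reads the same on both strands, was present in 19 of the 68 (27.9%) and in 17.0% of the 27025 genes with a window. GAANNTTC alone was in 15 of the 68 (22.1%, against 9.04% of all genes) and TTCNNGAA in 8 (11.8%, against 9.60%), with 4 genes holding both. A run of 3 units, GAANNTTCNNGAA or TTCNNGAANNTTC, was in 4 of the 68, Dnajb6, Hspd1, Hspe1 and Hsph1 (5.88%, against 0.662% of all genes). These are descriptions of letters in a fixed window and were not tested.

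The deposited values are CPM, a gene's reads scaled to a common library total. The knockdown libraries held 18173916 to 27902514 reads and the pulldown libraries 4678563 to 8364126, so 3 reads, used as the floor, correspond to 0.108 to 0.165 and 0.359 to 0.641 CPM. Floors and intervals cover counting error only, since the reads were amplified by PCR without molecular identifiers. The targeted gene Eif1ad3 was at 839 and 663 CPM in controls and 277 and 377 CPM in knockdown libraries. All 7 listed 2-cell markers were present; their summed level was 3565 and 3596 CPM in controls and 2544 and 2961 CPM in knockdown libraries, while 9 oocyte markers summed to 4254 and 3618 CPM in controls and to 7383 and 3916 CPM in knockdown A and B. Cumulus markers (5 of 10 listed) stayed between 5.94 and 13.9 CPM in sum, and sperm markers (2 of 5 listed) at or below 2.83 CPM; the part of these marker shifts in the results on knockdown embryos was not tested. Across the 85 genes Pearson's correlation between replicates on the log2(CPM + 1) scale was 0.984 for control, 0.936 for knockdown, 0.896 for His and 0.531 for IgG, and the IgG pair stood apart in the same way over all genes of its table (0.564).

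In control embryos the 85 genes together took 0.966% and 1.05% of library reads, and in knockdown embryos 0.902% and 0.921%. No chaperone gene passed the test between knockdown and control. Of the 85 genes, 81 had at least 1 CPM in at least 2 of the 4 libraries and were tested (Hspa1l, Dnajb7, Dnajc6 and Dnajc16 were not, at 1.41 CPM or less), and 0 had an adjusted p under 0.05 by limma, as had 0 of all 13332 genes tested (0%). The smallest adjusted p among the chaperone genes was 0.859. By limma's unadjusted p under 0.05 there were 2 higher genes (2.47%, against 2.95% of all genes), Dnajb4 and Dnajc25, and 2 lower genes (2.47%, against 2.5% of all genes), Bag5 and Hsp90ab1. The count tests of edgeR and DESeq2 on the recovered reads also called 0 of the 81; edgeR called 0% of all genes, and DESeq2 0.105% higher and 0.0075% lower. The median fitted change of the 81 genes was -0.07 (log2, knockdown minus control) beside 0.02 over all genes tested, and it ranged from -0.09 to 0.013 over the libraries left out, so its sign rests on single libraries. It was -0.02 by edgeR and -0.01 by DESeq2. Of the 81 genes, 36 had a positive value (44.4%, against 51.3% of all genes) and 45 a negative one. In pooled embryos fewer cells and less RNA per cell cannot be told apart, and CPM gives a gene's share of the reads, not its amount per embryo.

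In 16 genes both knockdown libraries were above both controls (19.8%, against 18.1% of all genes tested) and in 16 below both (19.8%, against 18.4%), so a lack of overlap was about as frequent as in genes in general. Spread between the knockdown libraries was larger than between the controls. The median SD over the 81 genes on the log2(CPM + 1) scale was 0.22 in controls and 0.45 in knockdown libraries, near the values of all genes tested (0.24 and 0.49). In 16 genes knockdown A lay above and knockdown B below both controls (19.8%, against 19.1% of all genes tested), and in 9 the order was the opposite (11.1%, against 8.21%). Leaving out knockdown A gave 9 calls, with 2 higher (2.56% of 78 tested, against 6.1% of all genes) and 7 lower (8.97%, against 9%). Leaving out knockdown B gave 6 calls, with 4 higher (5.06% of 79 tested, against 2.32%) and 2 lower (2.53%, against 0.913%). In those fits the lone knockdown library is assumed to vary as the control pair does. Leaving out either control library gave 0.

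The HSP70 genes differed among themselves. Hspa8, the constitutive cytosolic HSP70, was at 496 and 702 CPM in controls and at 435 and 228 CPM in knockdown A and B. Both knockdown values lay below both controls, a mean of 599 ± 146 against 332 ± 146 CPM (SD, n = 2 each), or 55.4% of control. The log2 change of -0.90 (SE 0.40) did not pass (limma unadjusted p = 0.0521, adjusted p = 0.859). Hspa5, the endoplasmic reticulum HSP70 also called BiP, was at 136 and 177 CPM in controls and 125 and 112 CPM in knockdown libraries. Hspa9, the mitochondrial HSP70, was at 163 and 194 CPM in controls and on either side of them in knockdown A (195 CPM) and B (141 CPM). Hspa2, known for its role in male germ cells, was at 34.5 and 27.1 CPM in controls and 16.5 and 17.1 CPM in knockdown libraries, again without overlap, and did not pass. Hspa12a, Hspa13 and Hspa14 lay between 2.76 and 12.1 CPM in all 4 libraries, and Hspa1l, the testis-type gene beside Hspa1a and Hspa1b, at or below 0.935 CPM, under the level needed for a test.

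The inducible pair had few reads, and neither gene passed. Hspa1a was at 2.28 and 2.53 CPM in controls and at 1.76 and 0.715 CPM in knockdown A and B, from 57, 63, 49 and 13 reads. Both knockdown values were below both controls, with a mean of 2.40 ± 0.178 against 1.24 ± 0.736 CPM (SD, n = 2 each), or 51.4% of control, and the log2 change of -0.65 (SE 0.56) did not pass (limma unadjusted p = 0.282, adjusted p = 0.897). The Hspa1a change was -1.02 at a pseudocount of 0.1, -0.25 at a pseudocount of 5, -0.98 by edgeR and -0.99 by DESeq2. Hspa1b was at 7.84 and 5.62 CPM in controls and at 5.95 and 14.4 CPM in knockdown A and B, from 196, 140, 166 and 261 reads. The groups overlapped, since knockdown A lay between the controls and knockdown B above them. Its log2 change was 0.43 (SE 0.60, limma adjusted p = 0.946). Per kilobase of transcript (2798 bases for Hspa1a and 2810 for Hspa1b), Hspa1a was at 0.815 and 0.904 CPM and Hspa1b at 2.79 and 2.00 CPM in controls. Knockdown B held the lowest Hspa1a level, 0.256 CPM per kilobase, and the highest Hspa1b level, 5.11 CPM per kilobase. These genes are near-identical copies, and how reads that fit both were counted is not given in the sources used here, so the division of reads between them is uncertain.

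All 3 HSP90 genes had negative fitted changes, with a median of -0.47, and this held for each of the 3 genes under median rescaling, quantile normalization, edgeR and DESeq2. None passed. Hsp90aa1, the inducible cytosolic form, was at 1032 and 1069 CPM in controls and 752 and 762 CPM in knockdown libraries, with both pairs tight and no overlap. Its knockdown mean was 72.1% of control and its log2 change -0.47 (SE 0.29, limma unadjusted p = 0.144). Hsp90ab1, the constitutive form, was at 638 and 900 CPM in controls and 508 and 279 CPM in knockdown A and B. Its groups did not overlap either, at 769 ± 185 against 394 ± 162 CPM (SD, n = 2 each), with a log2 change of -1.01 (SE 0.39, limma unadjusted p = 0.0307, adjusted p = 0.859). Hsp90b1, the endoplasmic reticulum HSP90, overlapped, at 93.7 and 73.3 CPM in controls and 59.2 and 80.9 CPM in knockdown libraries. Summed over the 3 genes the level was 1763 and 2042 CPM in controls and 1319 and 1122 CPM in knockdown libraries.

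**Figure D1:**
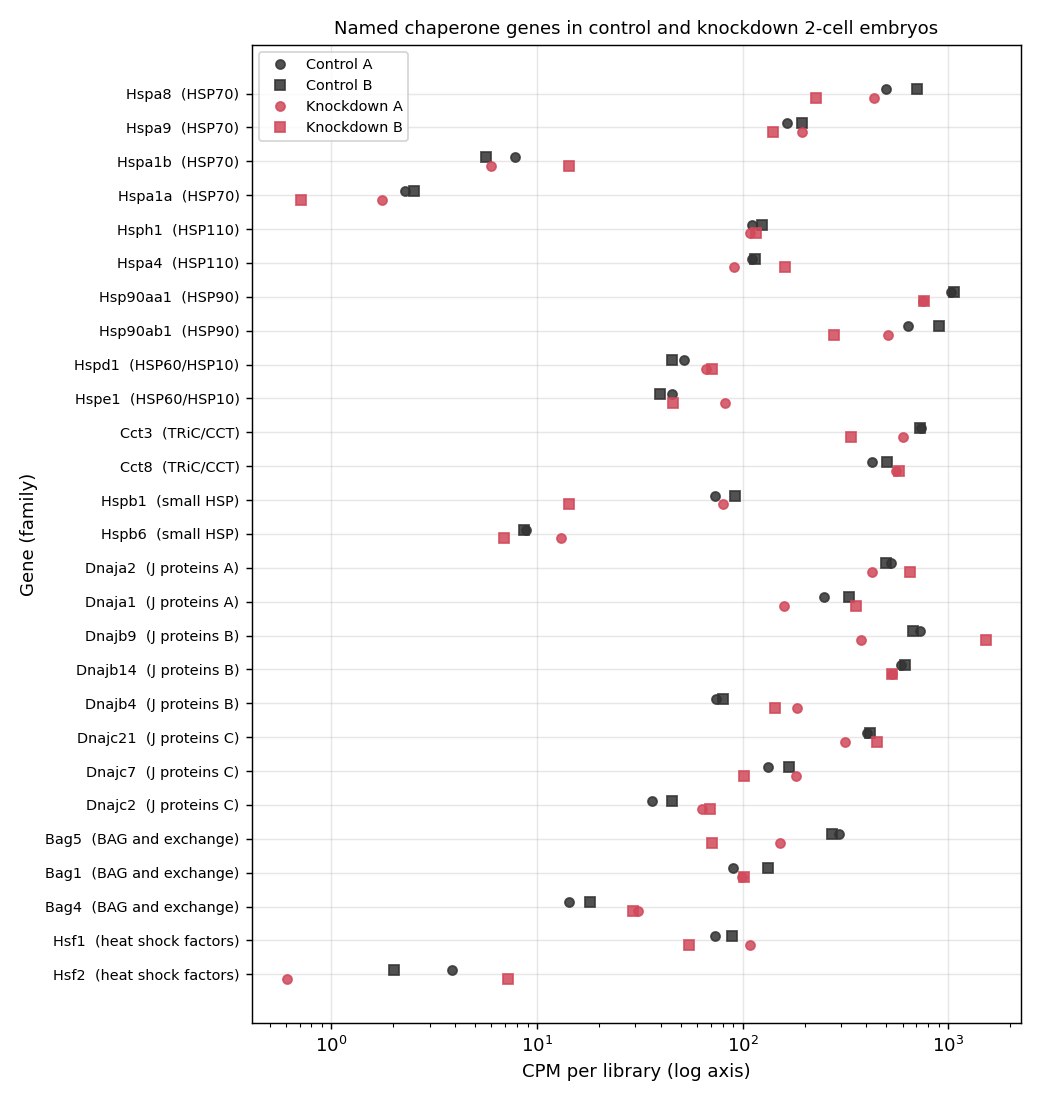
CPM of 27 named chaperone genes in each library on a log axis, with control libraries in black, knockdown libraries in red, circles for replicate A and squares for replicate B. Knockdown symbols lie left of both controls for Hsp90ab1, Hspa8 and Bag5, right of both for Dnajb4, and on either side of them for Dnajb9 (375 and 1519 CPM); no gene shown passed the test.

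The mitochondrial chaperonin genes had positive fitted changes. Hspd1, which encodes HSP60, was at 51.7 and 45.5 CPM in controls and 66.2 and 70.8 CPM in knockdown libraries. Hspe1, which encodes its lid HSP10, was at 45.2 and 39.4 CPM in controls and 82.3 and 46.0 CPM in knockdown libraries. In both genes both knockdown libraries were above both controls, with log2 changes of 0.49 (SE 0.37) for Hspd1 and 0.53 (SE 0.42) for Hspe1, positive under every scaling tried, and neither passed. The cytosolic chaperonin TRiC/CCT, which folds actin and tubulin, had 10 genes spread around 0, with a median of -0.09 and 3 positive values. Cct3 was at 735 and 730 CPM in controls and 605 and 337 CPM in knockdown A and B (64.3% of control, log2 change -0.70, SE 0.36, limma unadjusted p = 0.0900). Cct8, another subunit of the same ring, was at 425 and 504 CPM in controls and 558 and 577 CPM in knockdown libraries (log2 change 0.29, SE 0.30). Cct4 was also higher in both knockdown libraries, at 93.5 and 140.7 CPM against 90.6 and 90.1 CPM, while Cct5 and Cct7 were high in knockdown A (106 and 125 CPM) and low in knockdown B (49.6 and 40.0 CPM).

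Among the J proteins, Dnajb4, a cytosolic partner of HSP70, had the smallest unadjusted p among the higher genes. It was at 73.8 and 80.1 CPM in controls and 183 and 144 CPM in knockdown A and B. The groups were well apart, at 77.0 ± 4.46 against 164 ± 27.7 CPM (SD, n = 2 each), or 213% of control, with a log2 change of 1.07 (SE 0.34, limma unadjusted p = 0.0142, adjusted p = 0.859). Dnajc25 was at 0.720 and 0.884 CPM in controls and 2.87 and 4.84 CPM in knockdown libraries (log2 change 1.40, SE 0.56, limma unadjusted p = 0.0355). With both controls under 1 CPM, it reached the level for a test through the knockdown libraries alone. Dnajc2, a J protein of the ribosome, was at 36.3 and 45.3 CPM in controls and 63.7 and 69.2 CPM in knockdown libraries (163% of control, log2 change 0.70, SE 0.38). Dnajb9, an endoplasmic reticulum J protein, took opposite positions in the knockdown libraries, 375 CPM in A and 1519 CPM in B, around controls at 725 and 676 CPM. Dnajc9, which also chaperones histones, did so the other way, at 109 CPM in A and 28.0 CPM in B with controls at 34.1 and 31.9 CPM, as did the mitochondrial Dnajc11 at 95.4 and 19.0 CPM with controls at 32.5 and 32.0 CPM. Dnajb6, which keeps proteins from aggregating, was at 452 and 412 CPM in controls and 409 and 411 CPM in knockdown libraries. Dnajb14, a J protein of the endoplasmic reticulum membrane, was at 590.3 and 615 CPM in controls and 530.2 and 535 CPM in knockdown libraries. The median change was -0.21 for the 4 Dnaja genes, -0.03 for the 10 Dnajb genes tested and -0.02 for the 26 Dnajc genes tested.

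Bag5, whose product carries several BAG domains and releases nucleotide from HSP70, had the smallest p of the 81 genes. It was at 295 and 272 CPM in controls and 153 and 71.3 CPM in knockdown A and B. Both knockdown libraries were below both controls, at 284 ± 16.5 against 112 ± 57.5 CPM (SD, n = 2 each), or 39.5% of control, with a log2 change of -1.43 (SE 0.42, limma unadjusted p = 0.00887, adjusted p = 0.859). Bag4 was at 14.3 and 18.1 CPM in controls and 30.9 and 29.2 CPM in knockdown libraries (log2 change 0.86, SE 0.44). Bag3, a BAG gene tied to selective autophagy, was at 4.56 and 2.77 CPM in controls and 7.53 and 9.24 CPM in knockdown libraries, and neither passed. Bag1 overlapped, at 90.0 and 133 CPM against 99.8 and 101 CPM. Hspbp1, another exchange factor of HSP70, was at 17.8 and 18.5 CPM in controls and 10.7 and 10.01 CPM in knockdown libraries. The 3 HSP110 exchange factors differed in pattern and none passed. Hsph1 overlapped, at 111 and 124 CPM in controls and 109 and 115 CPM in knockdown libraries. Hspa4 was at 111 and 114 CPM in controls and on either side of them in knockdown A (90.5 CPM) and B (161 CPM). Hspa4l was at 43.8 and 40.0 CPM in controls and below both in knockdown libraries, at 26.4 and 37.5 CPM (log2 change -0.40, SE 0.41).

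The transcription factor of the response showed no shared direction. Hsf1 was at 73.7 and 89.0 CPM in controls and at 109 CPM in knockdown A and 54.6 CPM in knockdown B, on either side of both controls (log2 change -0.07, SE 0.43). Hsf2 was low, at 3.88 and 2.01 CPM in controls and 0.609 and 7.21 CPM in knockdown A and B. Its fitted sign turned under edgeR (0.52), DESeq2 (0.56) and a pseudocount of 5 (0.07). Hspb1, a small heat shock protein that holds unfolded clients, was at 73.6, 91.7 and 80.4 CPM in both controls and knockdown A and at 14.3 CPM in knockdown B. The 19 genes with a paired heat shock unit in their promoter window had a median change of -0.07, with 8 positive and 11 negative values and 0 called, and the 45 tested genes whose window held none had a median of -0.11.

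**Figure D2:**
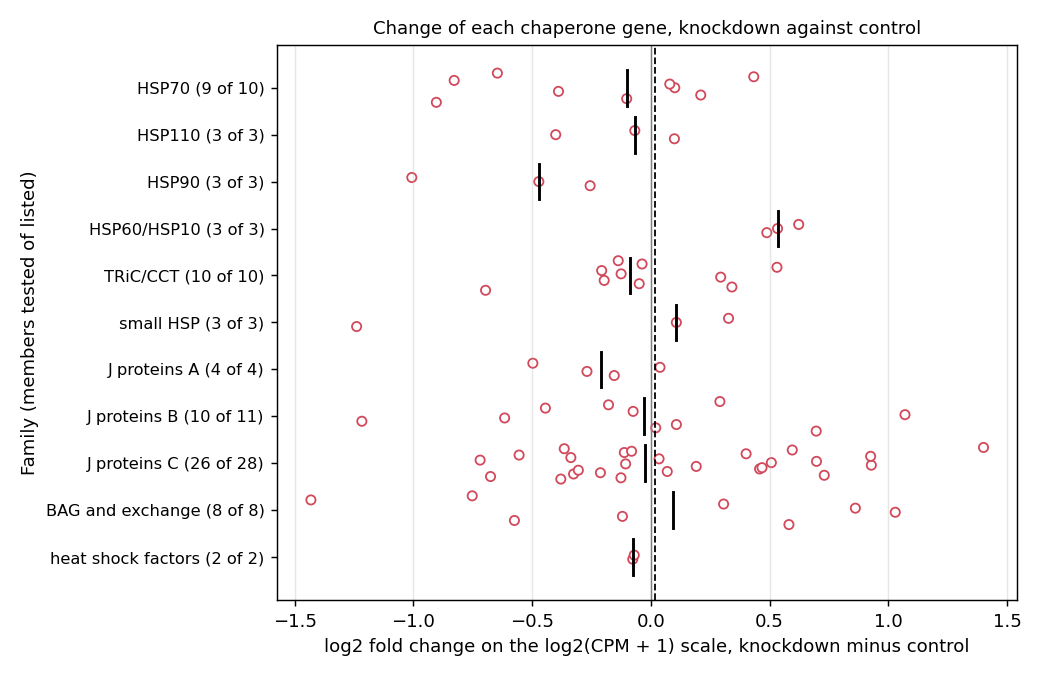
Log2 fold change of each of the 81 tested chaperone genes (knockdown minus control, log2(CPM + 1) scale), by family. Short black lines are family medians, the dashed line is the median of all genes tested (0.02), the grey line is 0, and all points are open because none passed; the 3 HSP90 genes lie left of 0 and the 3 HSP60/HSP10 genes right of it.

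In the pulldown the chaperone genes together took 0.457% and 0.414% of reads in His A and B and 0.397% and 0.353% in IgG A and B. The IgG libraries were sparse: 33 of the 85 genes had 0 reads in both (38.8%, against 47.7% of the 17012 genes) and a further 22 had 0 reads in exactly 1 (25.9%, against 24.4%). In both His libraries 74 of the 85 had reads (87.1%, against 72.5%), and 5 genes had 0 reads in all 4 libraries, namely Hspa14, Hsf2, Dnajc28, Dnajc24 and Dnajb7. The IgG replicates often disagreed about the same gene. Dnajc30 was at 218 CPM in IgG A and 0 in IgG B, and Hspd1 at 45.2 CPM and 0. In the opposite direction Hsph1 was at 0.338 CPM in IgG A and 159 CPM in IgG B, and Tcp1 at 0.169 and 153 CPM. Of 25 chaperone genes at 10 CPM or more in IgG A, 5 had 0 reads in IgG B (20%, against 23.1% of all genes), and of 28 such genes in IgG B, 4 had 0 reads in IgG A (14.3%, against 25.5%). Of the 58 chaperone genes at 10 CPM or more in His A 0 had no reads in His B (against 1.2% of all genes), and of the 51 in His B 0 had none in His A (against 1.11%).

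**Figure D3:**
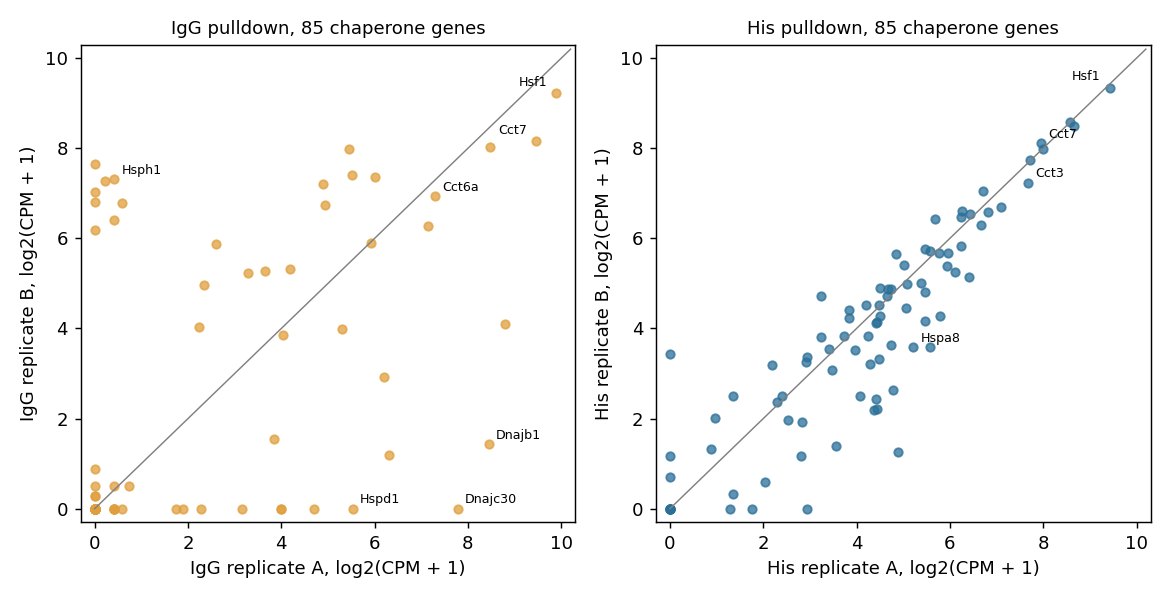
Each of the 85 chaperone genes in replicate A (horizontal) and replicate B (vertical) on the log2(CPM + 1) scale, with IgG at left, His at right and the line of equal values. The IgG panel has genes along both axes that were high in 1 library and at or near 0 in the other, such as Dnajc30 and Hsph1, and the His points lie nearer the line (Pearson's r 0.531 and 0.896).

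Of the 85 genes, 70 had at least 1 CPM in at least 2 of the 4 pulldown libraries and were tested; each of the other 15 reached that level in at most 1 library, with 9.73 CPM for Cct8l1 in His B as the highest value. An adjusted p under 0.05 by limma was reached by 25, all higher with the anti-His antibody (35.7%, the same share as the 35.7% of all 11232 genes tested), and by 0 in the lower direction (0.917% of all genes). The chaperone genes were thus called as often as genes in general. Their median change was 2.19 (log2, His minus IgG) beside 2.01 over all genes tested. Adjusted p-values of the 25 ran from 0.00997 to 0.0294, and 16 of the 25 had 0 reads in both IgG libraries (64%, against 67.2% of all genes called higher). Each of the 25 was under 1 CPM in both IgG libraries, so it reached the level for a test through the His libraries alone. In the 16 genes the IgG pair had no spread, which makes the SE smaller. Both His libraries were above both IgG libraries in 40 genes (57.1%, against 54.1%) and below both in 4, Cct6a, Cct7, Dnajc22 and Hspa4 (5.71%, against 9.06%). By limma's unadjusted p under 0.05 there were 30 higher genes (42.9%, against 42.1%) and 1 lower (1.43%, against 2.49%).

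These calls depended on how the sparse IgG libraries were scaled. Under median rescaling the split was 14 higher (20%, against 18.5% of all genes) and 15 lower (21.4%, against 17.8%) instead of 25 and 0, and the median of all genes moved from 2.01 to -1.67. Only 5148 and 5564 genes reached 1 CPM in IgG A and B, so each IgG median over the tested genes was under 1 CPM, or a few reads. That rescaling raised nonzero IgG values by a factor resting on those few reads and left 0 at 0. All 14 higher calls had 0 reads in both IgG libraries. Under quantile normalization 0 of 70 passed, as did 0 of all genes, with 14 of the chaperone genes at an unadjusted p under 0.05 (20%, against 20.8% of all genes). By edgeR 0 of 70 passed, as did 0 of all genes, with 29 at an unadjusted p under 0.05 (41.4%, against 40.9%) and a smallest adjusted p of 0.0547, while DESeq2 called 30 higher (42.9%, against 42.4%) and 3 lower (4.29%, against 6.65%). Without IgG A 55 genes were called, with 43 higher (61.4%, against 51.1% of all genes) and 12 lower (17.1%, against 18%). Without IgG B 52 were called, with 44 higher (62.9%, against 55.3%) and 8 lower (11.4%, against 14.7%). With His A or His B left out, only 41 genes reached 1 CPM in 2 libraries and were tested. None of the 25 called genes was among them, since all were under 1 CPM in both IgG libraries. Those fits therefore could not test the calls. The lone library in each such fit is assumed to vary as the other group does. Of the 7 2-cell markers 4 were called higher in His and both His libraries were above both IgG libraries in 6, with a median log2 change of 3.10. The remaining one, Gm20767, carried most of the reads, at 328 and 515 CPM in IgG and 249 and 255 CPM in His, and the other 6 summed to 1.35 and 27.8 CPM in IgG and 132 and 134 CPM in His. The 9 oocyte markers were at 3280 and 4181 CPM in IgG and 8709 and 9050 CPM in His. The 8 listed cumulus markers summed to 0 in both IgG libraries and to 5.98 and 19.96 CPM in His. Of the 3 listed sperm markers Prm2 alone had reads, at 47.4 and 54.3 CPM in IgG and 1.08 and 7.20 CPM in His. The 6 blastocyst markers summed to 116 and 0.214 CPM in IgG, where the value of IgG A is Sox17 alone, and to 84.9 and 58.7 CPM in His. The part of these marker differences in the calls was not tested.

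Within the HSP70 family 5 of 8 tested genes were called higher (62.5%, against 35.7% of all genes; the difference was not tested). Hspa1a was at 4.30 and 4.67 CPM in His (36 and 37 reads) and had 0 reads in both IgG libraries, against a floor of 0.574 CPM on average (3 reads per library). This is at least 7.82-fold higher, and the log2 change of 2.46 (SE 0.20) passed (limma adjusted p = 0.00997), though its sign turned under quantile normalization (-0.13). Hspa1b was at 20.4 and 4.42 CPM in His (171 and 35 reads) and likewise had 0 reads in both IgG libraries, at least 21.7-fold higher. The His replicates lay far apart, and the gene just missed the threshold (log2 change 3.43, SE 0.81, limma adjusted p = 0.0507), and over its alternatives the adjusted p ran from 0.000178 by DESeq2 to 0.572 under quantile normalization. Hspa8 was at 36.2 and 10.99 CPM in His with 3 reads in IgG A and none in IgG B (log2 change 4.11, SE 0.76, limma adjusted p = 0.0294), a ratio of 84.7 with an exact 95% counting interval of 28.8 to 412. Its call was lost with no filter (0.0512), at a pseudocount of 5 (0.0679), by edgeR (0.101), under quantile normalization (0.626) and under median rescaling (0.658), each value being the adjusted p, which was lowest by DESeq2 (0.000338). Hspa5, at 13.4 and 17.9 CPM against 0 and 0.855 CPM, Hspa13, an endoplasmic reticulum member, at 10.04 and 7.45 CPM against 0 in both, and Hspa12a, a distant member, at 18.4 and 8.21 CPM against 0 and 0.214 CPM, were called as well. Hspa9 overlapped, at 27.7 and 49.0 CPM in His and 78.3 and 1.28 CPM in IgG.

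TRiC/CCT subunits lay at both ends of the range. Cct3 was at 204 and 150 CPM in His and had 2 reads in IgG A and 0 in IgG B, the largest change among the tested chaperone genes in this fit (log2 7.25, SE 0.73, limma adjusted p = 0.00997). The ratio was 942 with an exact 95% counting interval of 261 to 7783. Under median rescaling its log2 change was 3.69 and the call was lost (adjusted p = 0.138). Cct5 was at 75.9 and 95.9 CPM in His and 0 reads in IgG, at least 149.7-fold higher (log2 6.43, SE 0.57). Cct4 and Cct6b were called as well, from 9.56 and 10.6 CPM and from 4.78 and 2.91 CPM in His with 0 reads in IgG. Other subunits of the ring were not called by limma on the deposited CPM, and median rescaling called Cct6a and Cct7 lower in His. Cct6a was at 8.49 and 13.1 CPM in His and at 156 and 122 CPM in IgG, below both IgG libraries, and just missed the threshold (log2 change -3.58, SE 0.86, limma adjusted p = 0.0536). DESeq2 called it lower, as it did Dnajc22 and Hspa4. Cct7 was high in all 4 libraries, at 246 and 275 CPM in His and 702 and 286 CPM in IgG, and Tcp1 and Cct8 had low and high IgG values side by side (0.169 and 153 CPM, and 0 and 71.8 CPM).

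Of the 33 J protein genes tested 12 were called higher (36.4%, against 35.7% of all genes). Dnaja3, the mitochondrial member, was at 101 and 77.4 CPM in His with 0 reads in IgG, at least 155-fold higher (log2 6.48, SE 0.58, limma adjusted p = 0.00997). Dnaja2, a cytosolic member, was at 74.0 and 88.0 CPM in His and 0.675 and 0.427 CPM in IgG (log2 5.72, SE 0.63, limma adjusted p = 0.0106), and its call was lost under median rescaling (log2 1.29, adjusted p = 0.530). Dnajc9 was at 67.9 and 37.0 CPM in His with 0 reads in IgG, at least 91.4-fold higher (log2 5.68, SE 0.58). The other Dnajc calls were Dnajc1, Dnajc2, Dnajc3, Dnajc4, Dnajc5g and Dnajc13, and the Dnajb calls were Dnajb11, Dnajb12 and Dnajb13. Other J protein genes were not called by limma on the deposited CPM: Dnaja1 had 24.2 and 25.5 CPM in His with 0 and 110.5 CPM in IgG, and Dnaja4 had 50.6 and 85.6 CPM in His with 63.0 and 163 CPM in IgG. Under median rescaling Dnaja4, Dnajb4, Dnajb6, Dnajb14, Dnajc21 and Dnajc22 were called lower in His, and DESeq2 called Dnajc14 higher and Dnajc22 lower. Dnajb1, the classical HSP40, was even in His at 254 and 253 CPM and split in IgG at 349 and 1.71 CPM. Dnajc11 was similar, at 401 and 361 CPM in His and 440.3 and 16.0 CPM in IgG.

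Bag5 was called higher, at 46.7 and 51.9 CPM in His with 0.338 and 0.427 CPM in IgG (log2 5.18, SE 0.53, limma adjusted p = 0.00997), and so was Bag1, at 18.1 and 13.3 CPM with 0 and 0.427 CPM. Under median rescaling both calls were lost, at a log2 change of 1.05 for Bag5 (adjusted p = 0.543) and 0.70 for Bag1 (adjusted p = 0.594). Of the small heat shock proteins Hspb6 was called, at 14.7 and 10.5 CPM with 0 reads in IgG, and Hspb1 overlapped, at 111 and 94.5 CPM in His and 141 and 76.5 CPM in IgG. In the HSP90 family Hsp90b1 was called at a low level, 3.95 and 4.17 CPM with 0 reads in IgG, at least 7.07-fold higher. The cytosolic Hsp90ab1 was at 380.2 and 382 CPM in His, above both IgG libraries at 356 and 259.7 CPM, and was not called (log2 change 0.33, SE 0.34). Leaving out single libraries, its change ranged from 0.10 to 0.55. Hsp90aa1 was at 74.6 and 55.6 CPM in His and 42.9 and 254 CPM in IgG. Hsf1 took the most reads of the 85 genes in each of the 4 pulldown libraries, a rank by reads and not by transcripts, at 685 and 651 CPM in His and 951 and 599 CPM in IgG, and its difference did not exceed the spread (log2 change -0.18, SE 0.30, limma adjusted p = 0.742). Under median rescaling Hsf1 was called lower in His (log2 -5.88, adjusted p = 0.0110), as were Hsp90aa1 (-6.26), Hsp90ab1 (-5.37) and Hspb1 (-5.64). Those values rest on IgG medians of a few reads, and on the deposited CPM none of these genes was called. None of the 3 HSP110 or the 3 HSP60/HSP10 genes was called.

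**Figure D4:**
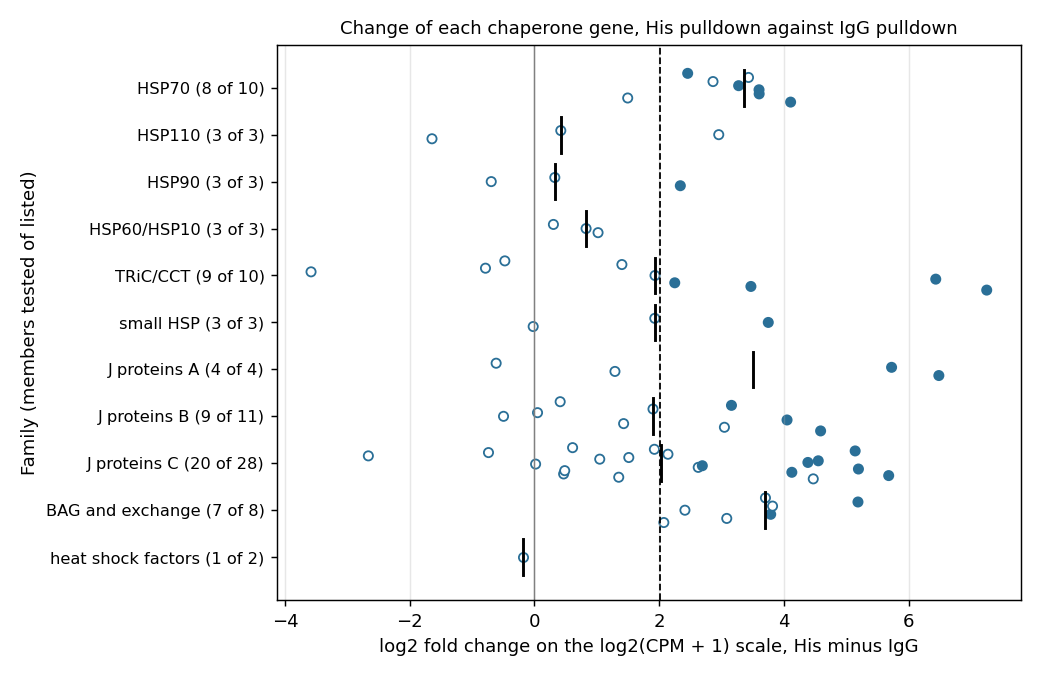
Log2 fold change of each of the 70 tested chaperone genes (His minus IgG, log2(CPM + 1) scale), by family. Filled points passed an adjusted p of 0.05, open points did not, short black lines are family medians, the dashed line is the median of all genes tested (2.01) and the grey line is 0; the TRiC/CCT subunits run from -3.58 for Cct6a to 7.25 for Cct3.

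Pulldown levels were also set beside those of control embryos, as a description only: the tables were normalized separately and come from different embryos. Keeping genes by their control level makes these ratios lean low by construction, and the chaperone genes were not matched to the other genes on that level. Of the 85 genes, 58 had a mean of at least 10 CPM in control embryos. Their His level was a median of 34.1% of the control level, beside 63.3% for the 7263 genes past the same minimum, and their IgG level a median of 6.13%, beside 19.1%. The His level exceeded the control level in 17 of the 58 (29.3%, against 38.6% of all), and the IgG level in 7 (12.1%, against 29.8%). Of the 58, Dnajc28 had 0 reads in both His libraries, and the next lowest His levels relative to control were those of Dnajb14 (3.25%), Tcp1 (3.31%), Hspa8 (3.94%), Hsp90b1 (4.86%), Dnajc5b (6.03%) and Hsp90aa1 (6.20%). Hsf1, Dnajc11 and Dnajb1 were among the 17 on the other side, with higher CPM in both His libraries than in either control. Their mean IgG levels also exceeded the control level, at 952.6%, 707.7% and 243.5% of it.

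Partner genes of the chaperones, a list of 43 chosen by role, were read the same way. In knockdown embryos 0 of 42 tested passed (0%), with a median change of -0.03, and 3 had a limma unadjusted p under 0.05 (7.14%, against 5.45% of all genes in both directions). Pfdn4, a subunit of prefoldin, which hands actin and tubulin to TRiC/CCT, was at 21.8 and 17.0 CPM in controls and 66.9 and 46.8 CPM in knockdown libraries (log2 change 1.49, SE 0.43, limma unadjusted p = 0.00791, adjusted p = 0.859). Hsbp1, which binds Hsf1, was at 77.2 and 104 CPM in controls and 170.2 and 148 CPM in knockdown libraries (log2 change 0.82, SE 0.35). P4hb, a protein disulfide isomerase of the endoplasmic reticulum, lay lower, at 219 and 245 CPM in controls and 131 and 90.0 CPM in knockdown libraries (log2 change -1.09, SE 0.35). The 6 prefoldin genes had a median of 0.52 and the 5 mitochondrial proteases and their partners a median of -0.48. In the pulldown 11 of 42 were called higher (26.2%, against 35.7% of all genes) and 0 lower (against 0.917%), with a median of 1.97. Txndc9, a regulator of TRiC/CCT, was at 188 and 209 CPM in His and 0.338 and 1.28 CPM in IgG (log2 6.83, SE 0.82, limma adjusted p = 0.0119). Cdc37, which brings kinases to HSP90, was at 102 and 50.4 CPM in His and 0 and 1.496 CPM in IgG (log2 5.53, SE 0.88, limma adjusted p = 0.0202). Grpel1, the exchange factor of mitochondrial HSP70, was at 68.4 and 78.4 CPM in His and 1.18 and 0 CPM in IgG, and was called too.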

How the data were processed

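Per the labels' protocols, cDNA of 2-cell embryos or pulldown RNA was amplified by Smart-seq2, tagmented (Nextera XT) and read on a HiSeq X. The submitters' processing notes name Trim Galore 0.6.7, FastQC, HISAT2 2.2.1, featureCounts 2.0.1, edgeR and GRCm39; annotation, strand setting, gene filter and the treatment of reads fitting several genes are not given in the sources used here. The authors deposited CPM values in 2 tables, normalized separately, so tests stayed within a table. Each value was a whole number of reads (100% within 0.05 read), which gave the reads and totals. The test, over all genes at 1 CPM or more in 2 or more of a comparison's 4 libraries, was limma's (version 3.58.1, R 4.3.3; lmFit, eBayes with trend, two-sided, Benjamini-Hochberg, threshold 0.05) on log2(CPM + 1). Fold changes are on that scale and understate changes of low genes; SE is limma's, ± is SD.

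The alternatives were pseudocounts of 0.1 and 5, no filter, a mean of at least 5 CPM, median rescaling, quantile normalization, a replicate block, leaving out each library, and count tests of the recovered reads (DESeq2 1.42.0, edgeR 4.0.16). The column names of 4 pulldown-table columns do not decide which are input and which total RNA, so they were not used and 3 planned comparisons were not run. No member at 10 CPM or more in every library had reads identical to another gene. Named genes are Hspa1a and Hspa1b, the 2 of each family with the highest control CPM, and in each comparison the 5 largest called changes at a mean of at least 10 CPM without overlap, or, with no call, the 3 of smallest p in each direction; others were named after their values were seen. Not every member is named, and results for 1 gene are not reported here. The members and lists were chosen with earlier results of these data known. The fits were tested on data simulated from the control libraries of the knockdown experiment only. That setting does not resemble the sparse IgG libraries, so it does not cover the pulldown fits.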

Additional observations from a re-analysis of the deposited data

How the results depend on the processing

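In the knockdown comparison 0 chaperone genes were called under every setting except leaving out a knockdown library, with 0 to 9 calls over the libraries left out. The sign turned for Hsf2 (0.069 at a pseudocount of 5, 0.52 by edgeR, 0.56 by DESeq2) and for Dnaja2 (-0.013 under median rescaling). Leaving out single libraries, the log2 change ranged from -1.25 to 1.10 for Hsf2, -0.40 to 0.16 for Bag1, -0.15 to 0.013 for Hsph1, -0.34 to 0.13 for Hspa9, -0.27 to 0.35 for Dnaja2, -0.54 to 0.29 for Dnajc7, -0.56 to 0.42 for Hsf1, -0.85 to 0.31 for Dnaja1, -0.37 to 0.15 for Dnajc21, -0.31 to 0.53 for Hspb6, -0.14 to 1.01 for Hspa1b, -0.31 to 0.51 for Hspa4 and -0.90 to 1.12 for Dnajb9. It kept its sign but moved by over 1.5 times for Hspb1 (-2.45 to -0.03), Hspa8 (-1.37 to -0.44), Cct3 (-1.12 to -0.27), Hspe1 (0.12 to 0.95), Hsp90ab1 (-1.44 to -0.57), Hspa1a (-0.99 to -0.30), Cct8 (0.17 to 0.42) and Bag5 (-1.98 to -0.89). In the pulldown the 25 calls became 0 under quantile normalization and 0 by edgeR, and ranged from 0 to 55 over the libraries left out, where fewer samples remain. The members' median of 2.19 became 3.35 at a pseudocount of 0.1, 1.18 at 5, -2.09 under median rescaling and 0.19 under quantile normalization. It ranged from 0.86 to 3.08 over the libraries left out. That range mixes different sets of genes, 70 without an IgG library and 41 without a His library. Signs turned under median rescaling for Hsph1 (-4.12), Hspd1 (-2.80), Hspe1 (-4.79), Hspa9 (-3.66), Hsp90ab1 (-5.37), Dnaja1 (-2.60), Dnajb9 (-4.00), Dnajb14 (-4.84), Dnajc7 (-3.48) and Cct8 (-1.98). Under quantile normalization they turned for Hspa1a (-0.13), Hsph1 (-2.33), Hspd1 (-1.77), Hspa9 (-0.40), Dnaja1 (-1.05), Dnajb14 (-2.23), Dnajc7 (-0.85), Hsf1 (0.063) and Hspb1 (0.27). By edgeR they turned for Hsph1 (-1.99), Hspd1 (-1.07), Hspa9 (-0.29), Dnaja1 (-1.05) and Dnajc7 (-0.69), by DESeq2 for Hsph1 (-2.19), Hspd1 (-1.37), Hspa9 (-0.59), Hsp90ab1 (-0.063), Dnaja1 (-1.26), Dnajc7 (-0.89) and Cct8 (-0.087), and at a pseudocount of 5 for Hsph1 (-0.32). Leaving out single libraries, ranges crossing 0 were -3.03 to 3.87 for Hsph1, -0.33 to 1.98 for Hspe1, -2.11 to 4.69 for Dnaja1, -0.21 to 3.07 for Dnajb9, -1.75 to 4.45 for Dnajc7, -1.16 to 5.03 for Cct8, -0.51 to 0.16 for Hsf1, -0.46 to 0.42 for Hspb1, -1.75 to 3.79 for Hspd1, -1.07 to 4.05 for Hspa9, -1.96 to 0.58 for Hsp90aa1 and -1.68 to 0.21 for Dnajc21. By edgeR and under quantile normalization every pulldown call named in the text was lost. Under median rescaling 11 of the 25 were lost: Bag1, Bag5, Cct3, Dnaja2, Dnajb11, Dnajb12, Dnajc1, Dnajc13, Hspa5, Hspa8 and Hspa12a. The causes of these changes were not tested. Replicate letters are not stated to mark shared handling, and same-letter deviations correlated at 0.15 (knockdown) and -0.01 (pulldown). With the replicate letter as a block, 0 members were called in the knockdown comparison (2 of all genes) and 28 in the pulldown (3894 of all genes). Depth limits low genes: 3 reads are 0.108 to 0.641 CPM.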

Other observations

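Of the 5 chaperone genes listed in the pulldown table only, Hspb8, a small heat shock protein that works with Bag3, was at 12.2 and 5.43 CPM in His with 0 reads in both IgG libraries, at least 15.4-fold higher (log2 change 3.20, SE 0.47, limma adjusted p = 0.0170). It reached the level for a test through the His libraries alone. Dnajb5 was at 0 and 4.04 CPM in His and 0 in IgG, Hspa12b had reads in IgG B alone (0.214 CPM), and Hspb3 and Hspb9 had 0 reads in all 4 libraries. Among the genes with a paired heat shock unit in the promoter window, 4 of 16 tested were called higher in the pulldown (25%, against 35.7% of all genes), with a median of 1.35, and among the other genes with a window 17 of 38 were called (44.7%), with a median of 2.78; the difference was not tested.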
